A study of Homo sapiens with 2 samples.

Results

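The 10 genes described here belong to the BCL2 family, the proteins that decide at the mitochondrial outer membrane whether a cell enters apoptosis. They are BCL2L11, BID, PMAIP1 and BBC3 (BH3-only proteins), BAX and BAK1 (effectors), and BCL2L1, BCL2L2, MCL1 and BCL2A1 (antiapoptotic proteins). The list was fixed by gene name, but it was chosen by measured values of the same comparison, because BCL2L2 and BCL2L11 had been noted as higher; their differences are therefore a description and carry no test. All 10 were found among the 58174 gene identifiers of the table, and all 10 averaged at least 1 TPM (a transcript abundance that is corrected for length and scaled to a fixed library total).

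The data are 1 RNA sequencing library of PC3 cells given an siRNA against POH1 and 1 of PC3 cells given a control siRNA. PC3 is an established human prostate cancer cell line, and POH1 is the proteasome deubiquitinase encoded by PSMD14. The siRNA sequences, the dose and the time after transfection were not stated in the sources used here. With 1 library per group there is no replicate error, so no value below has an SD, an interval or a p-value, and each difference is one between these libraries. In lysates of whole cultures, fewer cells of a kind and less RNA per cell cannot be told apart.

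As background, antiapoptotic family members hold the effectors BAX and BAK1 in check, and BH3-only proteins sense stress and either occupy the groove of the antiapoptotic members or activate the effectors directly. Active BAX and BAK1 permeabilise the outer membrane, cytochrome c escapes, and APAF1 and caspase 9 start the caspase cascade. Several of the proteins are short-lived and are removed by the proteasome, so protein and transcript need not move together, and no protein was measured here.

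The feature that unites the family is the BH3 helix, and its coding sequence is shown because it is what the members of all 3 roles share. In the principal coding transcripts of GENCODE release 29 (GRCh38, coding strand, 5′ to 3′), a core was searched that consists of a leucine or methionine codon, 3 codons of any kind, a glycine or alanine codon and an aspartate codon. It occurred exactly once in 9 of the 10 members; the pair of capital codons encodes the glycine (alanine in BBC3) and the aspartate.
BCL2L11: ttgcggcgtattGGAGAC
BBC3: ctgcggcggatgGCGGAC
PMAIP1: ctcaggagatttGGAGAC
BID: ctcgcccaggtcGGGGAC
BAX: ctcaagcgcatcGGGGAC
BAK1: ctcgccatcatcGGGGAC
BCL2L1: ctgagggaggcaGGCGAC
BCL2L2: atgcgggcagctGGAGAT
MCL1: ttacgacgggttGGGGAT
The core lay at codons 92 to 97 of 138 in BCL2L11 and at codons 46 to 51 of 193 in BCL2L2, the only one of the 9 to open with a methionine codon. All 9 nucleotide sequences were distinct, and the aspartate codon ended in C in 7 of them and in T in 2. No match of this form was found in the coding sequence of BCL2A1.

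Differences are POH1 siRNA minus control siRNA on the log2(TPM + 1) scale, and folds are ratios of the TPM values. The pseudocount of 1 makes the log2 difference smaller than the fold for low genes. Calls of higher or lower were made at 1.5-fold, a log2 difference of 0.58 in size, over the 15008 genes that averaged at least 1 TPM. By this count 2 of the 10 members were higher (BCL2L2 and BCL2L11), 2 were lower (BCL2A1 and BID) and 6 lay within 1.5-fold. The same calls took in 10.2% of all genes as higher and 8.88% as lower. At 2-fold, the 2 higher members remained and no member was lower, against 2.15% of all genes higher and 2.93% lower. Differences moved with the GC content of the transcripts, so a value adjusted for it was computed. It is the difference less the median of genes of similar GC content plus the median of all genes. For members it is given where it changes a call or a sign, and for other genes only in some such cases. The higher members were part of how the list was chosen, so nothing is read from these shares. The median log2 difference of the members was 0.27, beside 0.12 for all genes. The members nearest the 1.5-fold threshold were BID just past it, at -0.65, and PMAIP1 just inside it, at 0.48.

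**Figure D1:**
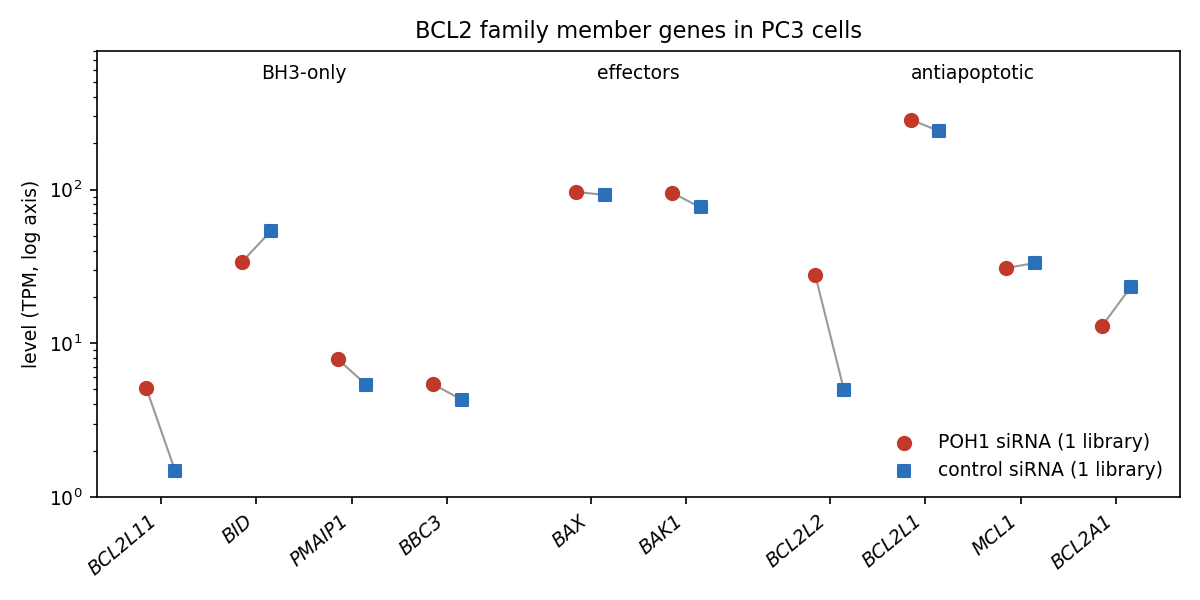
Level of each member gene in TPM on a log axis, by role; each circle is the POH1 siRNA library, each square the control siRNA library, and a line joins the pair. The steepest lines belong to BCL2L2 (27.8 TPM with POH1 siRNA, 4.97 TPM with control siRNA) and BCL2L11 (5.08 TPM with POH1 siRNA, 1.48 TPM with control siRNA), and BCL2L1 stands highest in both libraries.

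BCL2L11 encodes BIM, a BH3-only protein that binds all the main antiapoptotic members and can activate BAX and BAK1. It was at 5.08 TPM in the POH1 siRNA library and 1.48 TPM in the control siRNA library. This was 3.44-fold higher, a log2 difference of 1.29, and 146 of the 15008 genes (0.973%) had a difference as high or higher, itself included. It was nevertheless the least abundant of the 10 members in both libraries. Among the 4887 genes averaging from 1 to below 5 TPM, as BCL2L11 does, 2.84% were at least 2-fold higher. With a pseudocount of 5, which damps low genes, its difference was 0.64, still past 1.5-fold.

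The BCL2L11 gene (chr2:111119378-111168447, GRCh38, plus strand) is overlapped on the opposite strand by the long noncoding RNA gene MIR4435-2HG. The overlap covers 727 exon bases, or 10.9% of the exon sequence of BCL2L11. MIR4435-2HG was at 201 TPM in the POH1 siRNA library and 233 TPM in the control siRNA library. It was thus 39.6 times as abundant as BCL2L11 in the POH1 siRNA library and 158 times in the control siRNA library, and its log2 difference was -0.21, of opposite sign. Whether counting used strand was not stated, so reads of these genes may not have been told apart.

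The promoter of BCL2L11 is shown as the one of a member that was higher, and that of BCL2A1 beside it as one of a member that was lower. RefSeq's promoter table (GRCh38.p14) held 13 start sites for 8 of the 10 members, and BCL2L2 and MCL1 had no entry. A RefSeq start can differ from the GENCODE gene start. The printed windows of BCL2L11 and BCL2A1 lie inside the bounds that GENCODE gives these genes. The 250 bases before the start are printed 5′ to 3′, with matches on either strand to the forkhead core GTAAACA, the E-box CACGTG, the GC box GGGCGG and the TATA box TATAAA in capitals.
BCL2L11, chr2:111120664-111120913, plus strand: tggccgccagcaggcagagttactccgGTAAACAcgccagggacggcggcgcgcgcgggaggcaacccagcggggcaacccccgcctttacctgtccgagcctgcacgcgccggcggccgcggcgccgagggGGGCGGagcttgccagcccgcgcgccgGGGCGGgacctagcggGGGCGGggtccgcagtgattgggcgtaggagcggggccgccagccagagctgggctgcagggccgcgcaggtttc
BCL2A1, chr15:79971197-79971446, minus strand: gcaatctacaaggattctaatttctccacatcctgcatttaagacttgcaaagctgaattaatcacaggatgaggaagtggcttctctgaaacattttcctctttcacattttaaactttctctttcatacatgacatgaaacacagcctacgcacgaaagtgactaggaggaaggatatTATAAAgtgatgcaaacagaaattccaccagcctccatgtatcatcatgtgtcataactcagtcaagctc
The BCL2L11 sequence had a GC content of 76.8% and held 1 forkhead core, at position -223 from the start, and 3 GC boxes. The BCL2A1 sequence had a GC content of 38.8% and held 1 TATA box, at position -70 from the start, and no GC box. The windows of BID, the other lower member, had GC contents of 47.6% to 78%, up to 4 GC boxes and no TATA box. The printed pair therefore does not stand for higher and lower members. Among 34943 promoter windows of the same length, 2.98% held the forkhead core, 6.32% the E-box, 42.5% the GC box and 10.8% the TATA box. Of the 13 windows of members, the one of BCL2L11 was the only one with a forkhead core, and the BAX window held 4 E-boxes. A match describes letters in the window and not a bound site.

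BID, which caspase 8 cleaves into the active fragment tBID, linking death receptors to mitochondria, ran the other way from BCL2L11. It was at 33.8 TPM in the POH1 siRNA library and 53.5 TPM in the control siRNA library, 1.58-fold lower, with a log2 difference of -0.65. It was the most abundant of the 4 BH3-only members in both libraries. PMAIP1, which encodes NOXA, a BH3-only protein that mainly binds MCL1 and BCL2A1, was at 7.90 TPM in the POH1 siRNA library and 5.36 TPM in the control siRNA library. Its log2 difference of 0.48 lay within 1.5-fold, but at 0.70 after GC adjustment it was past it. BBC3, which encodes PUMA, which binds all the main antiapoptotic members, was at 5.43 TPM in the POH1 siRNA library and 4.27 TPM in the control siRNA library, also within 1.5-fold. Of the 4 genes, BID alone was below the control.

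The effectors were close in level to each other and near the control. BAX was at 96.3 TPM in the POH1 siRNA library and 92.3 TPM in the control siRNA library, a log2 difference of 0.06. This lies below the median of all genes, and the sign of the BAX difference turned under 5 of 12 other settings, where its value went down to -0.12. BAK1 was at 95.4 TPM in the POH1 siRNA library and 76.4 TPM in the control siRNA library, a log2 difference of 0.32. The ratio of BAX to BAK1 was 1.01 in the POH1 siRNA library and 1.21 in the control siRNA library.

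BCL2L1 encodes BCL-XL and was by far the most abundant member, at 285 TPM in the POH1 siRNA library and 240 TPM in the control siRNA library. Its log2 difference of 0.25 lay within 1.5-fold. The gene (chr20:31664452-31723989, GRCh38, minus strand) is overlapped on the opposite strand by the long noncoding RNA gene ABALON, which covers 43.0% of its exon bases. ABALON was at 28.9 TPM in the POH1 siRNA library and 18.7 TPM in the control siRNA library, at least 1.5-fold higher with a log2 difference of 0.60 that was 0.49, within 1.5-fold, after GC adjustment. The limit on strand given for BCL2L11 holds for this pair too. MCL1, a short-lived antiapoptotic protein, was at 30.9 TPM in the POH1 siRNA library and 33.2 TPM in the control siRNA library. Its log2 difference was -0.10, so the transcript was within 1.5-fold, and after GC adjustment the sign turned, at 0.12. The ratio of BCL2L1 to MCL1 transcripts was 9.21 in the POH1 siRNA library and 7.22 in the control siRNA library.

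BCL2A1 encodes BFL-1, an NF-kB-inducible antiapoptotic protein, and was lower. It was at 12.9 TPM in the POH1 siRNA library and 23.1 TPM in the control siRNA library, 1.79-fold lower, with a log2 difference of -0.80. Of all genes, 4.91% had a difference as low or lower. After adjustment for GC content its difference was -0.42, no longer past 1.5-fold.

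BCL2L2 encodes BCL-W, an antiapoptotic relative of BCL-XL, and had the largest difference of the 10 members. It was at 27.8 TPM in the POH1 siRNA library and 4.97 TPM in the control siRNA library, 5.59-fold higher, with a log2 difference of 2.27. Only 20 of the 15008 genes, itself included, had a difference as high or higher. In the control siRNA library BCL2L2 was the lowest of the 4 antiapoptotic members, and in the POH1 siRNA library it stood above BCL2A1 and close to MCL1.

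BCL2L2 (chr14:23298790-23311759, GRCh38, plus strand) is followed on the same strand by PABPN1, a poly(A)-binding protein gene, and the annotation holds a read-through gene, BCL2L2-PABPN1, that joins them. Of the 4189 exon bases of BCL2L2, 813 (19.4%) also belong to the read-through gene and 3376 do not. Seen from the read-through gene, 52.5% of its 1548 exon bases lie in BCL2L2 and 42.2% in PABPN1, while BCL2L2 and PABPN1 share none. BCL2L2-PABPN1 was at 3.53 TPM in the POH1 siRNA library and 3.63 TPM in the control siRNA library. PABPN1 was at 124 TPM in the POH1 siRNA library and 118 TPM in the control siRNA library. Both partners lay within 1.5-fold, with log2 differences of -0.03 for BCL2L2-PABPN1 and 0.08 for PABPN1. The ratio of BCL2L2 to the read-through gene was 7.88 in the POH1 siRNA library and 1.37 in the control siRNA library. Summed over BCL2L2 and BCL2L2-PABPN1 the level was 31.3 TPM in the POH1 siRNA library and 8.60 TPM in the control siRNA library, 3.64-fold higher. With PABPN1 added, a sum chosen after the values were seen, it was 156 TPM in the POH1 siRNA library and 126 TPM in the control siRNA library, a log2 difference of 0.30 that lies within 1.5-fold because PABPN1 makes up most of it. How reads in shared exons were divided among the genes was not tested.

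**Figure D2:**
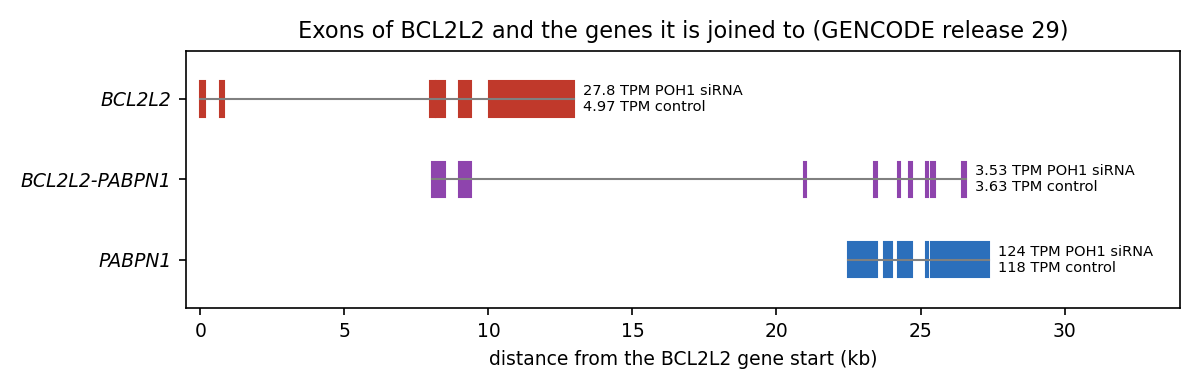
Exons (boxes) of BCL2L2, the read-through gene BCL2L2-PABPN1 and PABPN1 in GENCODE release 29, by distance in kb from the BCL2L2 gene start, with the level of each gene in both libraries. The read-through gene has the middle exons of BCL2L2 but not its long last exon, and of the 3 genes BCL2L2 alone is past 1.5-fold (27.8 TPM with POH1 siRNA, 4.97 TPM with control siRNA).

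TPM is per transcript length, so levels of the members can be added within a library. The 4 antiapoptotic members summed to 356 TPM in the POH1 siRNA library and 301 TPM in the control siRNA library. BCL2L1 made up 79.9% of this sum in the POH1 siRNA library and 79.6% in the control siRNA library. The share of BCL2L2 was 7.80% in the POH1 siRNA library and 1.65% in the control siRNA library, and that of BCL2A1 was 3.62% in the POH1 siRNA library and 7.68% in the control siRNA library. Together MCL1 and BCL2A1, the main partners of NOXA, summed to 43.8 TPM in the POH1 siRNA library and 56.3 TPM in the control siRNA library. Most of the difference between these sums came from BCL2A1 (12.9 TPM with POH1 siRNA, 23.1 TPM with control siRNA), which was within 1.5-fold after GC adjustment. MCL1 was near the control (30.9 TPM with POH1 siRNA, 33.2 TPM with control siRNA).

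The 4 BH3-only members summed to 52.2 TPM in the POH1 siRNA library and 64.6 TPM in the control siRNA library, and this lower sum was carried by BID. Without BID the sum was 18.4 TPM in the POH1 siRNA library and 11.1 TPM in the control siRNA library. BCL2L11 made up 9.73% of the 4 in the POH1 siRNA library and 2.29% in the control siRNA library, and BID made up 64.7% in the POH1 siRNA library and 82.8% in the control siRNA library. Within the 10 members, the ratio of antiapoptotic to proapoptotic genes, effectors included, was 1.46 in the POH1 siRNA library and 1.29 in the control siRNA library. Left without BCL2L2, that ratio was 1.35 in the POH1 siRNA library and 1.27 in the control siRNA library. Neither ratio counts BIK, BMF, HRK or BAD, the last at 227 TPM with POH1 siRNA and 170 TPM with control siRNA. They therefore describe the 10 members and not the balance of the whole family.

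**Figure D3:**
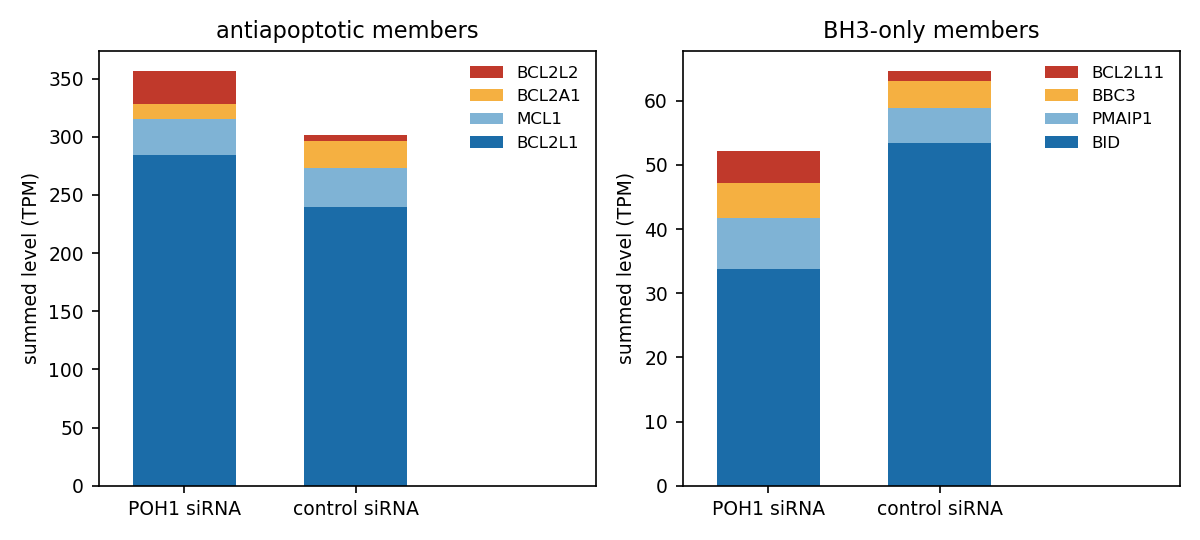
Summed TPM of the 4 antiapoptotic members (left panel) and the 4 BH3-only members (right panel), each bar 1 library and each colour 1 gene. BCL2L1 fills most of the antiapoptotic bar in both libraries, and the BH3-only bar is shorter in the POH1 siRNA library (52.2 TPM, against 64.6 TPM with control siRNA) although its BCL2L11 segment is larger.

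Across 10114 genes of at least 5 TPM the log2 difference went up with the GC content of the transcripts, with a Spearman correlation of 0.46 across genes, which are not independent. The running median over genes ordered by GC content ranged from -0.30 to 0.34. The members spanned 40.4% GC in BCL2A1 to 64.4% in BBC3. BCL2L11, with 50.5% GC, lay where the running median was 0.08, and its adjusted difference was 1.33. BCL2L2, with 61.9% GC, lay where it was 0.33, and its adjusted difference was 2.06. BID, with 54.1% GC, lay where it was 0.18 and had an adjusted difference of -0.71. After adjustment 3 members were at least 1.5-fold higher and 1 was lower, since PMAIP1 (45.6% GC) moved to 0.70 and BCL2A1 to -0.42. The same adjusted calls took in 11.6% of all genes with a GC content as higher and 5.64% as lower. MCL1 changed sign to 0.12 and BAX to -0.12.

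**Figure D4:**
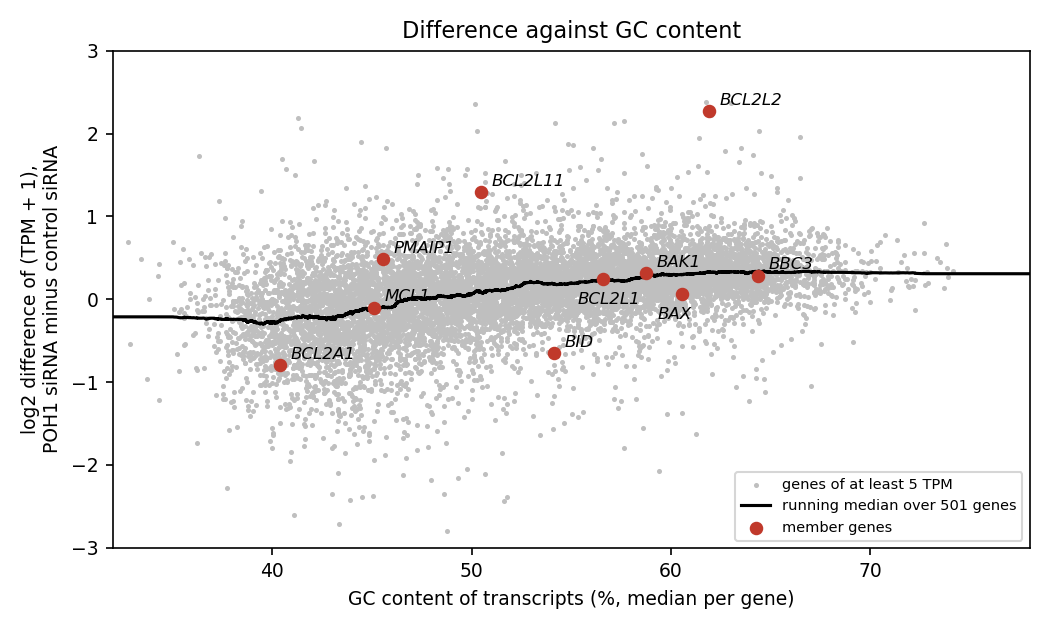
Log2 difference of each gene (POH1 siRNA minus control siRNA) against the GC content of its transcripts in percent; grey points are genes of at least 5 TPM, of which 22 of 10114 fall outside the axes, the line is their running median, and red points are the 10 members. BCL2L2, BCL2L11 and PMAIP1 lie above the line, BID and BCL2A1 below it, and the other 5 within 0.3 of it.

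The other 15 genes listed with the family, which include the BCL2-interacting genes BNIP1, BNIP2, BNIP3 and BNIP3L, were mostly near the control. Of the 15 genes, 10 averaged at least 1 TPM. Of those 10, 1 was at least 1.5-fold higher, none was lower and 9 lay within 1.5-fold. Of all genes, 10.2% were called higher and 8.88% lower. The median log2 difference of the 10 was 0.23, beside 0.12 for all genes. The higher one was BIK, a BH3-only gene of the endoplasmic reticulum, at 34.7 TPM in the POH1 siRNA library and 22.7 TPM in the control siRNA library, a log2 difference of 0.59. It was within 1.5-fold after GC adjustment, at 0.49, while BCL2L13 and BNIP2 were then past it. By adjusted values 2 of the 10 were higher and none lower, beside 11.6% and 5.64% of all genes. BAD, the BH3-only protein that survival kinases keep phosphorylated, was at 227 TPM in the POH1 siRNA library and 170 TPM in the control siRNA library and was the most abundant BH3-only gene. With BAD, BIK, BMF and HRK added, the BH3-only sum was 327 TPM in the POH1 siRNA library and 270.0 TPM in the control siRNA library, so the direction of the sum turns with the genes counted. BCL2L13 was at 50.6 TPM in the POH1 siRNA library and 33.9 TPM in the control siRNA library, just within 1.5-fold before adjustment and at a log2 difference of 0.67 after it. BNIP2 was at 3.28 TPM in the POH1 siRNA library and 2.72 TPM in the control siRNA library, with an adjusted log2 difference of 0.60. BCL2 itself, the founding antiapoptotic gene, was at 0.119 TPM in the POH1 siRNA library and 0.0481 TPM in the control siRNA library. The POH1 siRNA library listed BCL2L10 and BCL2L15 at 0, and the control siRNA library had them at 0.368 TPM (BCL2L10) and 0.136 TPM (BCL2L15).

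Of 13 genes acting downstream of BAX and BAK1 or beside them in the mitochondrial membrane, 2 were at least 1.5-fold higher and 2 lower. Among all genes the shares were 10.2% higher and 8.88% lower. The median log2 difference of the 13 was 0.13. Of the higher ones, CASP9, the initiator caspase of the apoptosome, was at 22.5 TPM in the POH1 siRNA library and 10.3 TPM in the control siRNA library, a log2 difference of 1.06. APAF1, the scaffold of the apoptosome, was at 2.68 TPM in the POH1 siRNA library and 1.52 TPM in the control siRNA library, a ratio of 1.77 but a log2 difference of 0.55 that lies within 1.5-fold. After GC adjustment it was 0.90, past 1.5-fold. The lower ones were channels of the outer membrane. VDAC2, which binds BAK1, was at 193 TPM in the POH1 siRNA library and 304 TPM in the control siRNA library, and VDAC3 was at 46.5 TPM in the POH1 siRNA library and 103 TPM in the control siRNA library. VDAC1, in contrast, was at 199 TPM in the POH1 siRNA library and 192 TPM in the control siRNA library. After GC adjustment VDAC2 was within 1.5-fold at -0.43 and VDAC3 was still past it at -0.85. CYCS, which encodes cytochrome c, was at 40.2 TPM in the POH1 siRNA library and 33.3 TPM in the control siRNA library, with a log2 difference of 0.27 that was 0.59, past 1.5-fold, after adjustment. By adjusted values 4 of the 13 genes were higher and 1 was lower, beside 11.6% and 5.64% of all genes.

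Of 20 regulators and partners of family proteins, 19 averaged at least 1 TPM. Of the 19, 3 were at least 1.5-fold higher, 1 was lower and 15 lay within 1.5-fold. Among all genes, 10.2% were called higher and 8.88% lower. The median log2 difference of the 19 was 0.25. The enzymes that set the ubiquitin state of MCL1 were not alike. HUWE1, a ubiquitin ligase that marks MCL1 for the proteasome, was at 168 TPM in the POH1 siRNA library and 77.1 TPM in the control siRNA library, with a log2 difference of 1.12. USP9X, a deubiquitinase that spares MCL1, was at 8.96 TPM in the POH1 siRNA library and 14.6 TPM in the control siRNA library, with a log2 difference of -0.65 that was -0.26 after GC adjustment. FBXW7, BTRC and MARCHF5, 3 more genes of ligases linked to MCL1 or its partners, lay within 1.5-fold; after GC adjustment FBXW7 was past it at 0.63, where its unadjusted difference was 0.34. By adjusted values 5 of the 19 genes were higher and none was lower, beside 11.6% and 5.64% of all genes.

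Of the transcription factors, TP73 was at 3.99 TPM in the POH1 siRNA library and 1.47 TPM in the control siRNA library, a log2 difference of 1.01. DDIT3, which encodes CHOP, a stress factor known to induce BIM, was at 63.0 TPM in the POH1 siRNA library and 38.1 TPM in the control siRNA library, a log2 difference of 0.71. FOXO3, another known activator of BCL2L11, was at 4.57 TPM in the POH1 siRNA library and 4.03 TPM in the control siRNA library, and FOXO1 was at 1.84 TPM in the POH1 siRNA library and 1.16 TPM in the control siRNA library. By their log2 differences both were within 1.5-fold, at 0.15 for FOXO3 and 0.39 for FOXO1, although the TPM values of FOXO1 had a ratio of 1.59. DYNLL1, the dynein light chain that binds BIM, was at 302 TPM in the POH1 siRNA library and 336 TPM in the control siRNA library. Activity of these factors was not measured, and any part they have in the member genes was not tested.

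**Figure D5:**
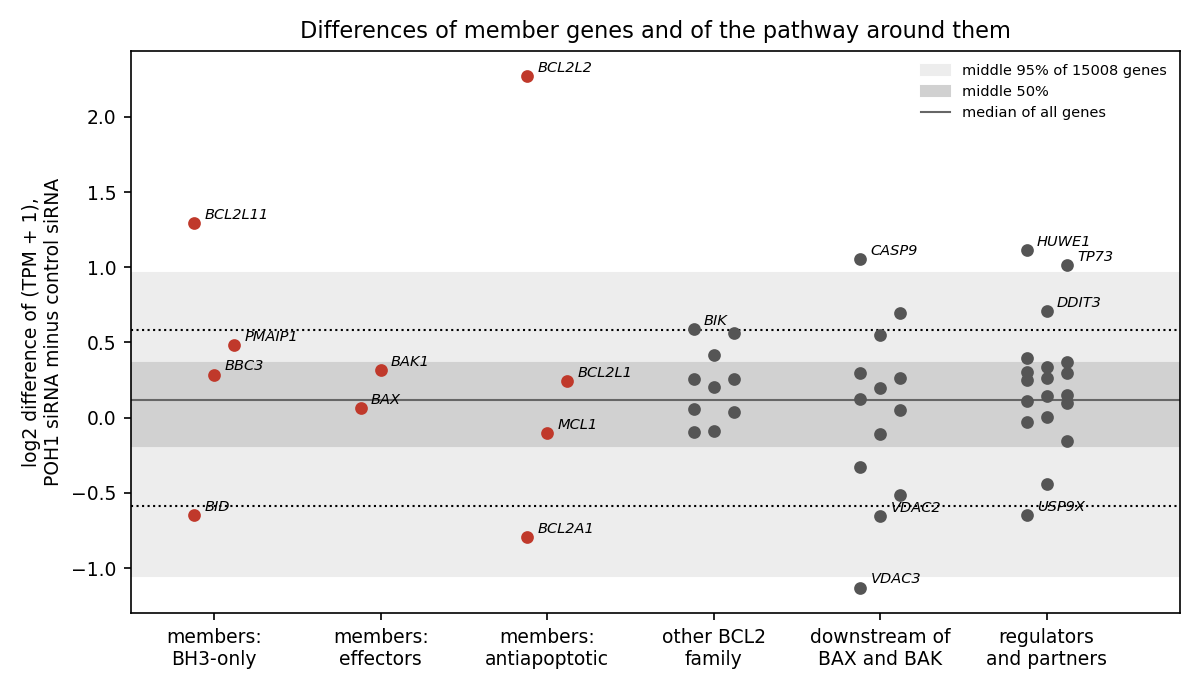
Log2 difference of each gene of at least 1 TPM (POH1 siRNA minus control siRNA) for the members by role (red) and the 3 other lists (grey); dark and light bands hold the middle 50% and 95% of all 15008 genes and dotted lines mark 1.5-fold. BCL2L2 and BCL2L11 lie above the light band, which runs from -1.05 to 0.96, as do CASP9, HUWE1 and TP73, and VDAC3 lies below it.

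The targeted gene, PSMD14, was at 35.1 TPM in the POH1 siRNA library and 50.9 TPM in the control siRNA library, a log2 difference of -0.52 that is within 1.5-fold and was -0.27 after GC adjustment. The 4 epithelial markers were at 129 to 556 TPM in the POH1 siRNA library and 111 to 517 TPM in the control siRNA library, and CD44 and VIM were at 421 TPM or more in both. Of the luminal prostate genes, KLK3 was listed at 0 in both libraries. Leukocyte markers were at 0.0568 TPM or less. Among fibroblast markers, COL1A1 was at 47.8 TPM in the POH1 siRNA library and 30.9 TPM in the control siRNA library, while COL1A2 and DCN were near 0 in both (at most 0.109 TPM). The 3 endothelial markers summed to 4.66 TPM in the POH1 siRNA library and 5.97 TPM in the control siRNA library, most of it PECAM1. Of all genes past 1.5-fold, 53.5% were higher; this share was 32.6% when the libraries were scaled to a median ratio of 1, 35.8% with trimmed mean scaling and 67.2% after GC adjustment. Median scaling lowers every log2 difference of an abundant gene by 0.15, and the 2 higher and 2 lower members were the same 4 genes under it.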

How the data were processed

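Gene expression of PC3 cells was measured by RNA sequencing in 1 POH1 siRNA and 1 control siRNA library; RNA was taken with Trizol and made into mRNA libraries, per the labels' protocols. The deposited values are TPM per gene as the authors computed them. CASAVA, HISAT2 and the build hg19 are named, per the submitters' processing notes; their versions, the annotation, the strand setting and the tool giving TPM were not stated there. TPM sums to a fixed total, so read depth is unknown and no counting error can be derived. Both columns of the table were used.

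Symbols were matched by identifier (57392 of 58174). GENCODE release 29 (GRCh38, not the authors' build) gave positions, shared exons and GC content (found for 99.8% of the genes tested). Promoters came from RefSeq (GRCh38.p14). The log2 difference of (TPM + 1) was computed over 15008 genes averaging at least 1 TPM, with Python 3.11.15, pandas 2.3.3 and NumPy 2.4.6, and the calculations were tested on simulated data. With 1 library per group no test was made. Named genes are the 10 members, PSMD14, genes overlapping a member, and from 3 lists the genes past 1.5-fold and some of known role. Members and lists were chosen with earlier results of these data known. Some genes of these lists are counted but not reported singly here. Protein sequences were not used here, so identities between members were not computed. Alternatives were pseudocounts of 0.1 and 5, no filter and one at 5 TPM, 2 scalings, removal of mitochondrial and the 50 most abundant genes, GC adjustment, protein-coding genes only and sums over genes sharing exons. GC adjustment subtracted from each gene the median difference of genes with similar GC content (5 TPM or more) and added the overall median back.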

Additional observations from a re-analysis of the deposited data

How the results depend on the processing

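Of 118 values of members under 12 alternatives, 115 kept their call at 1.5-fold, 3 did not and no called value turned sign. BCL2A1 was -0.42 and PMAIP1 0.70 after GC adjustment, and BCL2L2 was 0.30 when summed with BCL2L2-PABPN1 and PABPN1, which left 1 member higher; PABPN1 holds most of that sum. BCL2L11 ranged from 0.64 to 1.71 and BID from -0.81 to -0.59. GC adjustment left 1 member lower (845 of all genes at 1.5-fold and 268 at 2-fold lower). A filter at 5 TPM leaves out BCL2L11 and BBC3, so 1 member was higher and the members' median was 0.15; fewer genes passed (952 higher and 855 lower at 1.5-fold, 184 and 292 at 2-fold). The members' median was 0.13 with median scaling, 0.15 with trimmed mean scaling, 0.13 after GC adjustment and 0.11 when scaled to the same sum over the members, an alternative added after the data were seen, as was the sum with PABPN1. The median of all genes was -0.012 with median scaling and 0.0097 with trimmed mean scaling, and 917 and 1002 genes were 1.5-fold higher; a lower scale of 1 library shifts all values by construction. With a pseudocount of 0.1, 649 genes were 2-fold higher and 672 lower; with 5, 636 and 668 passed 1.5-fold and 100 and 190 passed 2-fold, since a pseudocount acts on low genes. No paired analysis was possible because each group has 1 library and no test was made. No replicate could be left out.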
